A study of Homo sapiens with 18 samples.

Results

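The genes described here are 10 genes of bile acid synthesis, conjugation and transport and of the signaling loop between the bile acid receptor FXR and the hormone FGF19: NR1H4, NR0B2, CYP7A1, CYP8B1, CYP27A1, BAAT, ABCB11, SLC10A1, FGF19 and FGFR4. They were chosen by name, with no measured value in the rule, although earlier results of these data were known. Each matched 1 of the 61806 genes of the count table through its Ensembl identifier. Of these 10 genes, 8 passed the filter on low counts that kept 19743 genes for testing, and ABCB11 and FGF19 did not. The members that passed are therefore not all members, and a gene could pass through the libraries of a single group.

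Poly(A) RNA was sequenced from HepG2, a human hepatoma cell line used as a model of hepatocytes, and from APOA4-KO, a line made from HepG2 by CRISPR-Cas9 editing of APOA4 (an apolipoprotein gene) and grown from single colonies. Both lines were sampled untreated at 0 h and after 24 h and 48 h of hypoxia at 1% oxygen, which gave 6 groups of 3 libraries and 18 libraries in all. The comparison of the lines addressed what the loss of APOA4 changes before and during hypoxia, and the comparison of times what hypoxia changes in each line. No cells were kept outside hypoxia for 24 h or 48 h, so the effect of low oxygen and that of time in culture cannot be told apart. APOA4-KO is a single edited line with no second edited line beside it, so the edit and any other difference between the cells of the lines cannot be told apart either. The labels number the replicates but do not say that they came from separate cultures, so the p-values measure the spread between these libraries, which may be technical.

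Bile acids are made from cholesterol in hepatocytes. CYP7A1 opens the classic route and CYP8B1 turns it toward cholic acid, CYP27A1 oxidizes the side chain and opens the alternative route, and BAAT joins the finished acids to glycine or taurine. ABCB11, the bile salt export pump, carries the conjugates into bile, and SLC10A1 takes them up again from blood. The nuclear receptor FXR, encoded by NR1H4, senses bile acids and induces NR0B2, whose product SHP lowers the transcription of CYP7A1 and CYP8B1. In the intestine FXR also induces FGF19, a hormone that acts on hepatocytes through the receptor FGFR4 with its co-receptor KLB and lowers CYP7A1.

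Libraries held 76481820 to 91604947 counts (median 81836972). Values below are CPM, the count per 1000000 counts of a library after TMM scaling, unless they are given as counts or as FPKM. APOA4 itself lay between 8.46 and 9.67 CPM in HepG2 at 0 h, between 18.9 and 21.7 CPM in HepG2 under hypoxia, and between 6.99 and 8.54 CPM in all 9 libraries of APOA4-KO. Transcripts of APOA4 were thus still counted in the edited line, and the log2 fold change against HepG2 was −0.23 ± 0.08 (SE), −1.35 ± 0.08 and −1.29 ± 0.08 in order of time. The rise of APOA4 under hypoxia in HepG2 was absent from the edited line, where it changed by 0.04 at 24 h and 0.09 at 48 h on the log2 scale and did not pass the test. All 8 hepatocyte markers (ALB, APOA1, APOB, TTR, TF, SERPINA1, AHSG, AFP) were present in every group, with a summed level of 57299 to 85023 CPM. The 10 hypoxia markers were higher at 24 h and at 48 h than at 0 h in both lines, and their sum rose from between 906 and 929 CPM at 0 h to between 2629 and 2665 CPM at 48 h in HepG2, and from between 1129 and 1170 CPM to between 4398 and 4513 CPM in APOA4-KO. Against HepG2, 10, 9 and 9 of these 10 markers were higher in APOA4-KO at 0 h, 24 h and 48 h, beside 12.9%, 23.6% and 23.5% of all genes tested. Their part in the line differences below was not tested. Of the markers of other cells, SI had no count in any library, CFTR and LCT had at most 4 counts, VIL1 made up at least 99.8% of the enterocyte sum and LYZ at least 96.0% of the blood cell sum. The cholangiocyte markers summed to between 674 and 1002 CPM, of which KRT19 made up 35.3% to 65.5%, and at 0 h the sum was higher in HepG2 (869 to 900 CPM) than in APOA4-KO (674 to 702 CPM). The fibroblast and endothelial sums were low, at 28.3 to 53.2 CPM and 8.55 to 16.8 CPM. The blood cell sum was higher under hypoxia and in APOA4-KO, from between 1074 and 1086 CPM in HepG2 at 0 h to between 2776 and 2845 CPM in APOA4-KO at 48 h, and the part of these markers in the differences below was not tested. Of the APOA4-KO libraries at 24 h, replicate 1 held 1503 counts of KRT7, 58 of TEK and 41 of KDR against 328 and 404 counts of KRT7, 4 and 8 of TEK and 4 and 0 of KDR in the others. All 3 counts lay within those of the APOA4-KO libraries at 0 h (1075 to 1620 for KRT7, 44 to 60 for TEK and 38 to 48 for KDR). These 3 genes of the marker lists were singled out after their values were seen. For CYP27A1 the same library, at 221 CPM, lay with the others at 24 h (216 and 225 CPM) and apart from those at 0 h (358 to 377 CPM). Whether it is a mixed or partly exchanged library was not tested, and the 6 calls on members that change without it are given with their values.

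Levels are comparable between genes only per length, and by FPKM the members ranged from the abundant to the uncounted. In HepG2 at 0 h the highest were FGFR4 at 177 ± 2.4 FPKM (SD, n = 3), CYP27A1 at 153 ± 2.5 FPKM and NR0B2 at 88.7 ± 1.1 FPKM, and their 3 libraries did not overlap with one another. NR1H4 followed at 10.97 ± 0.24 FPKM. CYP8B1 with 0.80 ± 0.13 FPKM, CYP7A1 with 0.41 ± 0.14 FPKM and BAAT with 0.14 ± 0.06 FPKM came next, and CYP8B1 and CYP7A1 were separated by more than their spread (0.70 to 0.95 against 0.25 to 0.50 FPKM), as were CYP7A1 and BAAT (0.08 to 0.19 FPKM) in the deposited values. For BAAT, counts and FPKM together imply a length of 4863 bases, while its annotated exons hold 3389 bases. Its separation from CYP7A1 therefore depends on the length used. SLC10A1, FGF19 and ABCB11 were at or near 0 in all 18 libraries, with at most 0.16, 0.11 and 0.01 FPKM. The uptake carrier SLC10A1 and the export pump ABCB11 were thus hardly counted in either line, while the receptor side of the loop and CYP27A1 were abundant. Other exporters outside the members, such as ABCC3, were counted and are given further below. In bulk RNA, fewer cells that express a gene and less RNA of it per cell cannot be told apart.

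**Figure D1:**
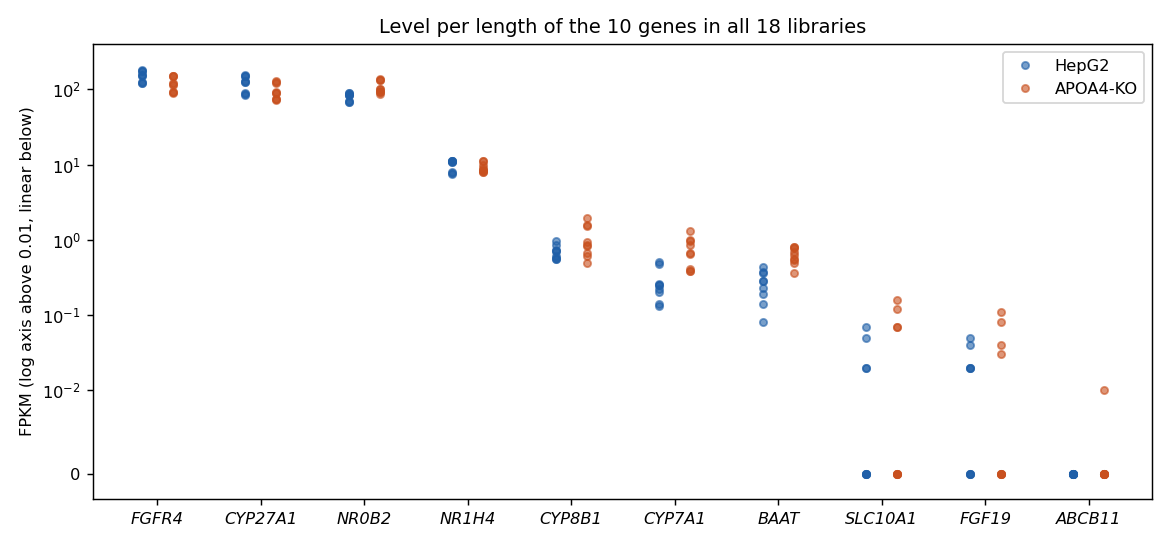
Level of each of the 10 genes in FPKM, as deposited, on an axis that is logarithmic above 0.01 FPKM and linear below it; each point is a library, with the 9 HepG2 libraries on the left and the 9 APOA4-KO libraries on the right of each gene. FGFR4, CYP27A1 and NR0B2 lie highest, NR1H4 follows, and ABCB11 is at 0 in all libraries but 1, which has 0.01 FPKM.

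For 6 of the 10 genes (NR1H4, CYP27A1, BAAT, ABCB11, SLC10A1 and FGFR4), RefSeq gave the sequence around a transcription start in GRCh38.p14. The 250 bases before the start are shown for 4 genes whose levels moved in the first 24 h of hypoxia: FGFR4, CYP27A1 and NR1H4, which fell together in both lines, and BAAT, which rose in HepG2. The windows are FGFR4 at chr5:177086665-177086914 on the plus strand (the first of its 2 listed starts), CYP27A1 at chr2:218781897-218782146 on the plus strand, NR1H4 at chr12:100503110-100503359 on the plus strand and BAAT at chr9:101383565-101383814 on the minus strand (the second of its 2). Capitals mark GCGTG or ACGTG, the core letters of a hypoxia response element, and AGGTCA, the half-site of nuclear receptors, on either strand.
FGFR4: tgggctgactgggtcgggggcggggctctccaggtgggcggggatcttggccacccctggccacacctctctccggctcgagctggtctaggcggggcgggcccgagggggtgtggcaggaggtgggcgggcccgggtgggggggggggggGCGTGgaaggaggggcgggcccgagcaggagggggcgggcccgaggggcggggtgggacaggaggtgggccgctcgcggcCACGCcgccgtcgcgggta
CYP27A1: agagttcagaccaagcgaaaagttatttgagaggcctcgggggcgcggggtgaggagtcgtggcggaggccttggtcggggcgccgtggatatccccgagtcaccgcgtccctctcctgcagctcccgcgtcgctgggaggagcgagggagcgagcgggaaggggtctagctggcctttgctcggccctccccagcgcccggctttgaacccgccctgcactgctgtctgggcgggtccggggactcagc
NR1H4: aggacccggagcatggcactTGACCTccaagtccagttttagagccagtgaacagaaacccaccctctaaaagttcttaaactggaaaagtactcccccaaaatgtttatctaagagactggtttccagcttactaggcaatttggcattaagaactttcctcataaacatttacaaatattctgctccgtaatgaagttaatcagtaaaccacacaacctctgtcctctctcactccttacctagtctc
BAAT: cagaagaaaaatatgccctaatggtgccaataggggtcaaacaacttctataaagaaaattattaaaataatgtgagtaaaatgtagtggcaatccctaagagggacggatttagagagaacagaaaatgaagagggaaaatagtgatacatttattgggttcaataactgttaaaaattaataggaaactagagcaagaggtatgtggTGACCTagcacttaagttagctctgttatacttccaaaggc

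The FGFR4 window held GCGTG at 2 places, 99 and 19 bases before the start (the latter on the opposite strand), the NR1H4 window held AGGTCA at position −230 and the BAAT window at position −41 from it, both on the opposite strand. The CYP27A1 window held none of these letters. The NR1H4 window lies inside the gene as annotated (chr12:100473708-100564413), so it belongs to an internal start. The sequence before the first annotated base of NR1H4 was not examined. The result depends on which listed start is taken: the other window of BAAT held none of these letters, and that of FGFR4 held no GCGTG but ACGTG at positions −37 and −36, an overlapping match on both strands. The starts of BAAT and FGFR4 that are shown were chosen with the matches known. Over all 35116 RefSeq promoters, counted from 250 bases before to 50 bases after a start, 48.4% held GCGTG or ACGTG and 13.8% held AGGTCA, so such matches are common. That window is longer than the 250 bases shown, for which the shares would be no higher. The matches describe letters only, not bound sites.

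Before hypoxia, 6 of the 8 members tested differed between the lines at an adjusted p under 0.05 (edgeR quasi-likelihood test with Benjamini-Hochberg adjustment over 19743 genes), 4 of them higher and 2 lower in APOA4-KO, against 30.5% of all genes tested (12.9% higher, 17.6% lower). A difference of at least 2-fold was reached by 3 of them, CYP7A1, CYP8B1 and BAAT, all higher in APOA4-KO, against 4.31% of all genes tested. After 24 h, 5 of 8 differed (3 higher, 2 lower, against 48.1% of all genes, 23.6% higher and 24.6% lower), and 1, CYP7A1, by at least 2-fold (7.77%). After 48 h, 6 of 8 differed (3 higher, 3 lower, against 50.8%, 23.5% higher and 27.3% lower), and 1, BAAT, by at least 2-fold (13.6%). The members went both ways, and the median log2 fold change of the 8 genes was 0.58, 0.41 and 0.35 at the 3 times, beside −0.01, 0.01 and −0.04 for all genes tested. Without SLC10A1, whose counts were near 0, the median of the other 7 was 0.12, 0.33 and −0.14, so that of 48 h turned direction. CYP7A1 and NR0B2 were higher, and CYP27A1 and FGFR4 lower, in APOA4-KO at each of the 3 times.

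**Figure D2:**
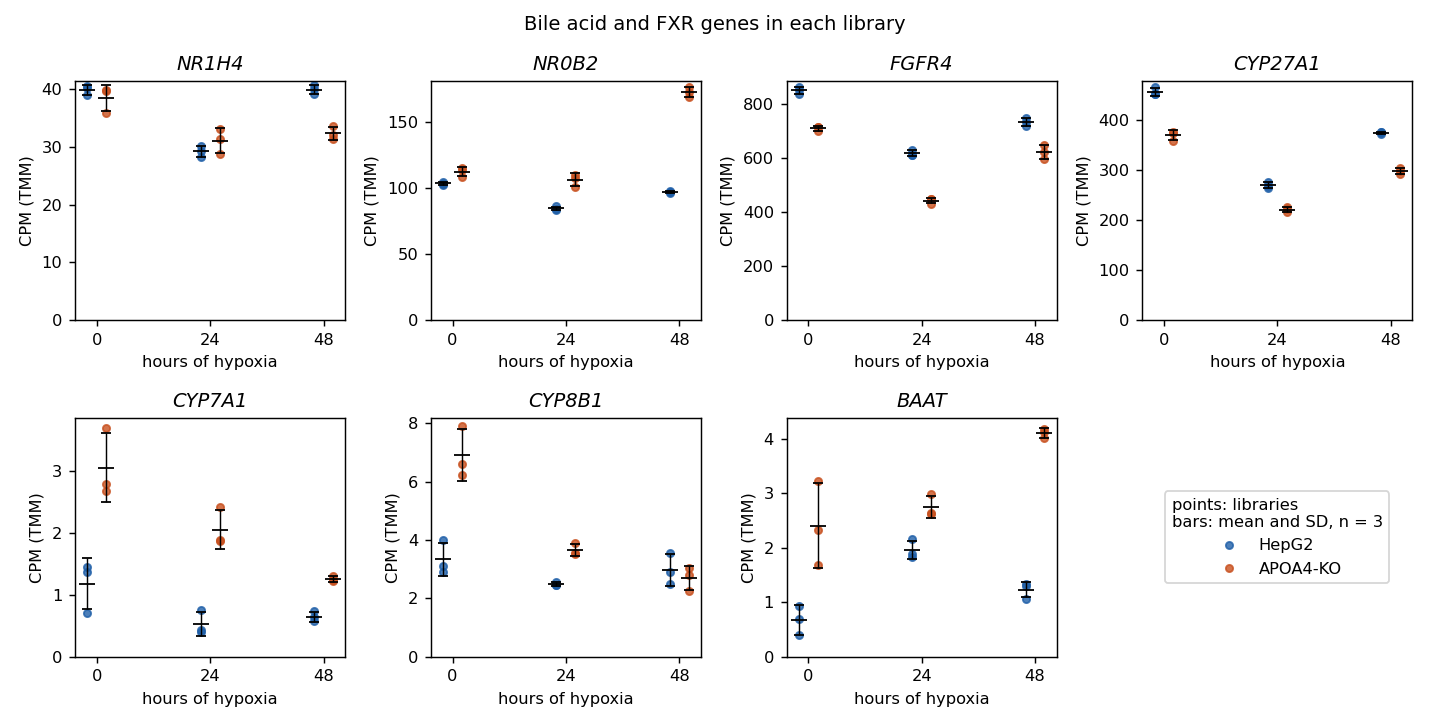
CPM of the 7 members with more than a few counts, by hours of hypoxia; blue points are HepG2 libraries, orange points APOA4-KO libraries, and black bars the mean and SD of 3 libraries, with each axis starting at 0. NR0B2 in APOA4-KO at 48 h lies between 169 and 176 CPM, above all other groups, and the CYP8B1 libraries of the lines overlap at 48 h only.

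**Figure D3:**
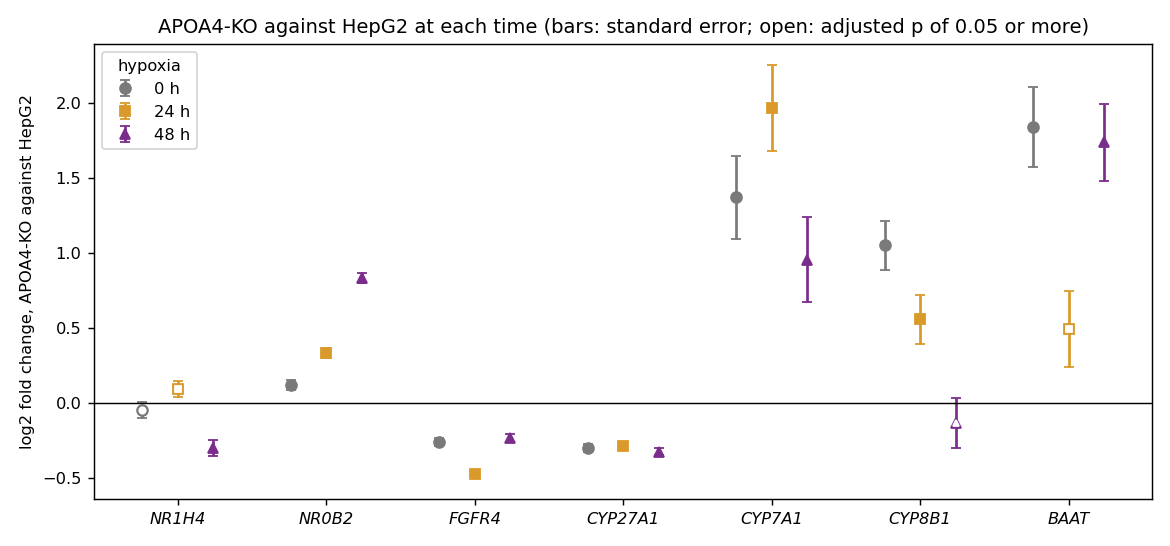
Log2 fold change between APOA4-KO and HepG2 (positive where APOA4-KO is higher) for 7 members after 0 h, 24 h and 48 h, with standard errors; open symbols have an adjusted p of 0.05 or more. CYP7A1 stands at 1.37, 1.96 and 0.95 and CYP8B1 at 1.05, 0.55 and −0.14.

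On the receptor side, NR1H4, which encodes FXR itself (chr12:100473708-100564413, GRCh38, plus strand), differed little between the lines at 0 h and 24 h. It was measured at 40.6, 38.9 and 40.2 CPM in HepG2 and at 35.8, 39.7 and 40.0 CPM in APOA4-KO at 0 h, and the groups overlapped (log2 fold change −0.05 ± 0.05, adjusted p = 0.53). At 24 h the values were 28.2, 30.2 and 29.3 CPM against 28.8, 33.1 and 31.4 CPM, again with overlap (0.09 ± 0.05, adjusted p = 0.20). Without replicate 1 of APOA4-KO at 24 h this difference was 0.15 with an adjusted p of 0.026, and with all libraries it also passed when counts were scaled by library size alone (0.15, adjusted p = 0.021) and with limma on FPKM (0.14, adjusted p = 0.021). At 48 h HepG2 was back at 40.7, 39.1 and 40.0 CPM while APOA4-KO stayed at 32.1, 31.4 and 33.6 CPM, with no overlap and a log2 fold change of −0.30 ± 0.05 (adjusted p = 7.2e-05).

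NR0B2 encodes SHP, the repressor that FXR induces (chr1:26911489-26913966, GRCh38, minus strand), and at 48 h it differed more between the lines than NR1H4, FGFR4 or KLB. In HepG2 it held 103, 102 and 105 CPM at 0 h, 83.3, 86.1 and 84.3 CPM at 24 h and 96.7, 96.4 and 97.7 CPM at 48 h. In APOA4-KO the same gene held 114.9, 108.7 and 113.7 CPM, then 108, 101 and 110 CPM, then 169, 172 and 176 CPM. All 3 libraries of APOA4-KO lay above all 3 of HepG2 at each time, with log2 differences of 0.12 ± 0.03, 0.33 ± 0.03 and 0.83 ± 0.03 in order of time (adjusted p = 0.0087, 7.4e-08 and 1.1e-13). The last is a 1.78-fold difference.

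FGFR4, the hepatocyte receptor for FGF19 (chr5:177086886-177098144, GRCh38, plus strand), was lower in APOA4-KO at each time without overlap. At 0 h HepG2 held 853, 839 and 864 CPM against 717, 716 and 700 CPM. After 24 h the values were 630, 611 and 611 CPM against 448, 431 and 450 CPM, and after 48 h 749, 732 and 720 CPM against 597, 648 and 623 CPM. The log2 fold changes were −0.26 ± 0.03, −0.48 ± 0.03 and −0.24 ± 0.03, with adjusted p = 2.5e-07, 1.6e-11 and 2.4e-07. KLB, the co-receptor that FGF19 needs (chr4:39406853-39451536, GRCh38, plus strand), did not keep 1 direction: it was lower in APOA4-KO at 0 h, higher at 24 h and lower again at 48 h, with log2 fold changes of −0.52 ± 0.03, 0.36 ± 0.03 and −0.34 ± 0.03 (adjusted p = 6.1e-11, 2.4e-09 and 5.0e-09). Its level was 225 to 233 CPM in HepG2 at 0 h, 105 to 106 CPM at 24 h and 154 to 158 CPM at 48 h, against 158 to 163, 135 to 138 and 117 to 128 CPM in APOA4-KO, and the groups did not overlap at any time. FGF19 (chr11:69698232-69704642, GRCh38, minus strand), which is made in the intestine, had counts of 0, 0 and 8, of 0, 8 and 0, and of 4, 4 and 4 in HepG2 at 0 h, 24 h and 48 h, and of 16, 0 and 0, of 0, 0 and 0, and of 6, 4 and 12 in APOA4-KO. It was not tested, and a count of 0 allows up to 3 counts in a library, or 0.0327 to 0.0392 CPM. Of the 10 counts above 0 of FGF19 and ABCB11, 9 were multiples of 4, so a count of this size need not stand for as many separate fragments. The floor of 3 counts takes each count as a separate fragment, so it may be too low, and it covers counting error only.

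Among the synthesis genes, CYP7A1, the rate-limiting enzyme of the classic route (chr8:58490178-58500236, GRCh38, minus strand), was higher in APOA4-KO at all 3 times. It had 116, 59 and 121 counts in HepG2 at 0 h against 293, 252 and 233 in APOA4-KO, 58, 35 and 36 against 159, 188 and 152 at 24 h, and 60, 62 and 52 against 88, 94 and 94 at 48 h. No library of HepG2 reached the lowest of APOA4-KO at the same time. The log2 fold changes were 1.37 ± 0.28, 1.96 ± 0.29 and 0.95 ± 0.28, or 2.58-fold, 3.90-fold and 1.93-fold in order of time (adjusted p = 0.00081, 1.1e-05 and 0.0086). The gene was scarce, at 1.18 ± 0.41 CPM in HepG2 and 3.06 ± 0.55 CPM in APOA4-KO at 0 h (SD, n = 3).

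CYP8B1, the 12-alpha-hydroxylase of cholic acid synthesis (chr3:42856005-42876165, GRCh38, minus strand), was also higher in APOA4-KO at first but not at 48 h. Its values were 2.92, 3.11 and 3.99 CPM in HepG2 against 6.60, 7.90 and 6.24 CPM in APOA4-KO at 0 h, and 2.56, 2.45 and 2.44 CPM against 3.89, 3.52 and 3.54 CPM at 24 h. These groups did not overlap, with log2 fold changes of 1.05 ± 0.16 (2.07-fold, adjusted p = 5.7e-05) and 0.55 ± 0.16 (adjusted p = 0.0087). At 48 h the values of 2.89, 2.48 and 3.55 CPM and of 3.05, 2.81 and 2.25 CPM overlapped (−0.14 ± 0.16, adjusted p = 0.54). Of the 4441 exon bases of CYP8B1, 142 are shared with ACKR2 on the opposite strand, and whether the counting used strand is not stated.

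CYP27A1, the mitochondrial sterol 27-hydroxylase (chr2:218781749-218815293, GRCh38, plus strand), went the other way and was lower in APOA4-KO by a similar amount at each time. It held 452, 451 and 465 CPM in HepG2 against 374, 377 and 358 CPM at 0 h, 276, 269 and 264 CPM against 221, 216 and 225 CPM at 24 h, and 375, 371 and 375 CPM against 293, 304 and 297 CPM at 48 h. The groups were separate each time, with log2 fold changes of −0.30 ± 0.02 (adjusted p = 1.5e-08), −0.29 ± 0.02 (adjusted p = 9.4e-09) and −0.33 ± 0.02 (adjusted p = 1.3e-09).

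BAAT, the enzyme that conjugates bile acids (chr9:101360417-101383519, GRCh38, minus strand), had few counts and a wide spread at 0 h. HepG2 had 33, 57 and 78 counts and APOA4-KO 184, 290 and 146, or 0.67 ± 0.27 against 2.41 ± 0.78 CPM (SD, n = 3), a log2 fold change of 1.84 ± 0.26 (3.57-fold, adjusted p = 2.4e-05). At 24 h the counts were 166, 163 and 156 against 252, 206 and 213 and the libraries did not overlap, but the difference of 0.49 ± 0.25 did not pass the test (adjusted p = 0.12). It passed when only the compared groups were fitted (0.51, adjusted p = 0.034) and with limma on FPKM (adjusted p = 0.020). At 48 h they were 125, 90 and 118 against 289, 313 and 301, and APOA4-KO was 3.33-fold higher (1.73 ± 0.26, adjusted p = 1.2e-05). A processed pseudogene on the opposite strand, AL359893.1, shares 453 of the 3389 exon bases of BAAT.

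Neither transporter gave a difference that passed the test, and ABCB11 was not tested. ABCB11, the export pump (chr2:168915498-169031324, GRCh38, minus strand), had 8 counts in replicate 2 of APOA4-KO at 0 h and 0 in the other 17 libraries. SLC10A1, the uptake carrier NTCP (chr14:69775417-69797289, GRCh38, minus strand), had 4, 8 and 0 counts in HepG2 before hypoxia, then 0, 0 and 4, then 13, 0 and 0 as hypoxia went on. In APOA4-KO the counts were 0, 28 and 12, then 12, 0 and 0, then 20, 0 and 0. Counts above 0 were thus scattered over both lines, and a difference in SLC10A1 was not detectable at this depth, with an adjusted p of 0.64 at 0 h and a standard error of 2.05 on the log2 scale.

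Of the 8 members tested, NR1H4, NR0B2, CYP27A1 and FGFR4 were lower in both lines by 24 h of hypoxia, although the NR0B2 call in APOA4-KO was lost in 20 of 25 alternative settings. The share of all genes lower in both lines was not counted, so whether this is unusual cannot be judged, and shares are given for each line. In HepG2, 6 of 8 differed between 24 h and 0 h (1 higher, 5 lower), against 29.6% of all genes tested (11.4% higher, 18.3% lower), and 2 by at least 2-fold, BAAT higher and CYP7A1 lower, against 3.08%. In APOA4-KO, 5 of 8 differed and all 5 were lower, against 44.4% of all genes (21.5% higher, 22.8% lower), and none by 2-fold (5.88%). At 48 h, 5 of 8 differed from 0 h in HepG2 (1 higher, 4 lower), against 27.7% of all genes (13.1% higher, 14.6% lower), none by 2-fold (2.18%). In APOA4-KO 7 of 8 did (2 higher, 5 lower), against 49.9% (23.9% higher, 25.9% lower), of which CYP7A1 and CYP8B1 by at least 2-fold, both lower (12.2%). From 24 h to 48 h, 4 of 8 changed in HepG2, all of them upward and none by 2-fold, against 30.5% of all genes (18.7% higher, 11.9% lower) and 2.12% by 2-fold. In APOA4-KO 5 of 8 did (3 higher, 2 lower), none by 2-fold, against 41.3% (21.9% higher, 19.4% lower) and 5.66% by 2-fold. With DESeq2 size factors these became 5 (4 higher, 1 lower) and 3 (3 higher, none lower). The changes to 24 h and to 48 h share their 0 h libraries, and the changes between times share libraries with the comparisons of the lines. Scaling by library size alone moved the median log2 fold change of all genes from −0.07 to −0.23 for APOA4-KO at 48 h against 0 h and from −0.04 to −0.19 for the lines at 48 h.

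**Figure D4:**
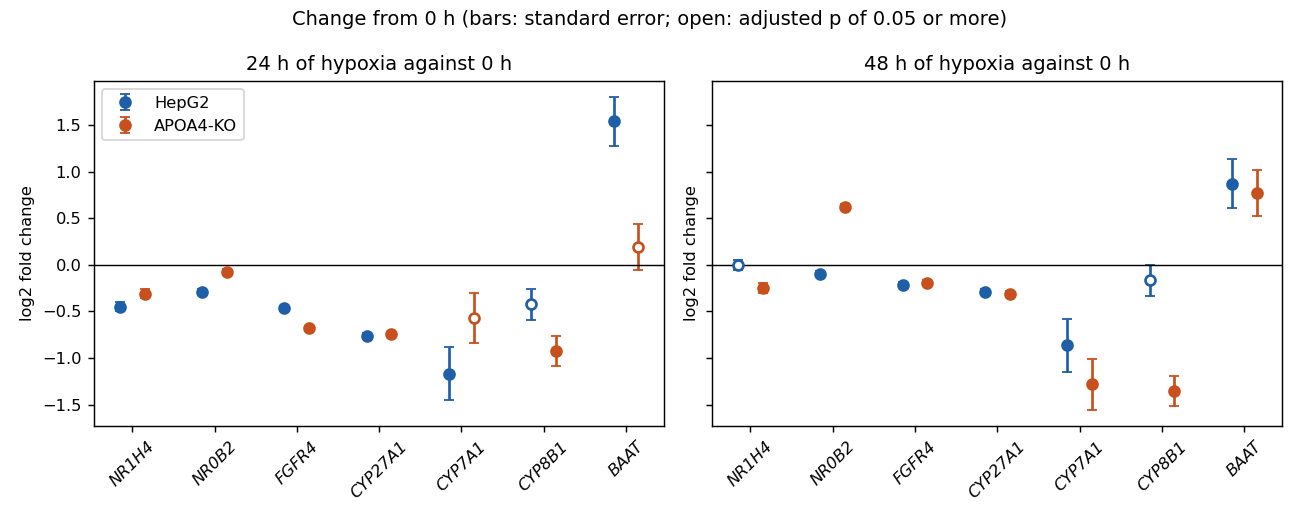
Log2 fold change from 0 h to 24 h (left) and to 48 h (right) of 7 members in HepG2 (blue) and APOA4-KO (orange), with standard errors; open symbols have an adjusted p of 0.05 or more. CYP27A1 falls by nearly the same amount in both lines (−0.76 and −0.74 at 24 h), while NR0B2 at 48 h stands at −0.10 in HepG2 and 0.62 in APOA4-KO.

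CYP27A1, FGFR4 and NR1H4 fell at 24 h in both lines. The log2 fold changes were −0.76 ± 0.02 in HepG2 and −0.74 ± 0.02 in APOA4-KO for CYP27A1 (adjusted p = 2.8e-14 and 1.9e-14), −0.46 ± 0.03 and −0.68 ± 0.03 for FGFR4 (adjusted p = 8.5e-11 and 1.5e-13), and −0.45 ± 0.05 and −0.31 ± 0.05 for NR1H4 (adjusted p = 2.1e-06 and 7.0e-05). From 24 h to 48 h CYP27A1 and FGFR4 rose again in both lines, by 0.47 ± 0.02 and 0.25 ± 0.03 in HepG2 (adjusted p = 4.1e-11 and 4.7e-07) and by 0.43 ± 0.02 and 0.49 ± 0.03 in APOA4-KO (adjusted p = 6.1e-11 and 2.3e-11). Both stayed below their 0 h level at 48 h, at −0.29 ± 0.02 and −0.22 ± 0.03 in HepG2 and at −0.31 ± 0.02 and −0.19 ± 0.03 in APOA4-KO. NR1H4 returned to its 0 h level in HepG2 (0.45 ± 0.05 from 24 h to 48 h, adjusted p = 2.2e-06, and 0.00 ± 0.05 from 0 h) and stood below it in APOA4-KO (−0.25 ± 0.05 from 0 h, adjusted p = 0.00053).

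NR0B2 fell at 24 h in HepG2 (−0.29 ± 0.03, adjusted p = 1.1e-06) and rose in APOA4-KO between 24 h and 48 h (0.70 ± 0.03, adjusted p = 4.2e-12), to 1.54 times its 0 h level (adjusted p = 8.6e-12). Its small changes in APOA4-KO at 24 h (−0.08 ± 0.03, adjusted p = 0.049, libraries overlapping) and in HepG2 at 48 h (−0.10 ± 0.03, adjusted p = 0.037) were lost in 20 and 15 of 25 alternative settings, among them each setting that left out 1 library of the groups compared. Without replicate 1 of APOA4-KO at 24 h they were −0.07 (adjusted p = 0.13) and −0.08 (adjusted p = 0.099).

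CYP7A1 and CYP8B1, the hydroxylases of the classic route, were lower at 48 h than at 0 h in APOA4-KO. There CYP8B1 stood at −0.92 ± 0.16 at 24 h and −1.35 ± 0.17 at 48 h against 0 h (adjusted p = 9.9e-05 and 1.1e-06), and CYP7A1 at −0.57 ± 0.27 and −1.28 ± 0.28 (adjusted p = 0.10 and 0.00071). In HepG2 CYP7A1 fell by 1.17 ± 0.29 on the log2 scale at 24 h and by 0.86 ± 0.28 at 48 h (adjusted p = 0.0040 and 0.028), although replicate 2 at 0 h, with 59 counts, lay within the range of the hypoxic libraries both times. The call at 24 h was lost when only the compared groups were fitted (−1.11, adjusted p = 0.054). That at 48 h was lost without HepG2 replicate 1 or 3 at 0 h or replicate 1 or 3 at 48 h (log2 fold changes −0.72, −0.67, −0.84 and −0.76, adjusted p 0.083 to 0.15). CYP8B1 in HepG2 differed from 0 h by −0.43 ± 0.16 at 24 h and −0.17 ± 0.16 at 48 h and did not pass the test (adjusted p = 0.061 and 0.55), but the first did without replicate 1 at 0 h (−0.51, adjusted p = 0.049), by library size alone (−0.50, adjusted p = 0.026) and with limma on FPKM (adjusted p = 0.041). From 24 h to 48 h in APOA4-KO, CYP7A1 (−0.71 ± 0.28, adjusted p = 0.047) and CYP8B1 (−0.43 ± 0.16, adjusted p = 0.043) passed narrowly, and these calls were lost in 17 and 15 of 25 alternative settings, among them those without any single APOA4-KO library at 24 h. Without replicate 1 there, the values were −0.77 (adjusted p = 0.063) for CYP7A1 and −0.38 (adjusted p = 0.12) for CYP8B1.

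BAAT rose in HepG2 at 24 h by 1.54 ± 0.26 on the log2 scale (2.90-fold, adjusted p = 0.00015), with all hypoxic libraries above all libraries at 0 h, and stood at 0.87 ± 0.26 at 48 h (adjusted p = 0.018). The latter call was lost without replicate 1 at 0 h, the library with 33 counts (0.62, adjusted p = 0.085), or without replicate 1 at 48 h (0.83, adjusted p = 0.052). The edited line gave 0.19 ± 0.25 at 24 h, with overlapping libraries, and 0.77 ± 0.25 at 48 h (adjusted p = 0.60 and 0.015), and the latter became 0.59 with an adjusted p of 0.080 without replicate 3 at 0 h.

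Whether the lines differed in their change from 0 h was tested directly. At 24 h this held for 3 of 8 members (1 higher, 2 lower), against 32.2% of all genes tested (16.8% higher, 15.4% lower): the change in APOA4-KO exceeded that in HepG2 by 0.21 ± 0.05 for NR0B2 and was lower by 0.22 ± 0.04 for FGFR4 and by 1.35 ± 0.36 for BAAT, the only one past 2-fold (2.59%). The BAAT value missed the threshold with limma on FPKM (adjusted p = 0.055), and without replicate 1 of APOA4-KO at 24 h a difference of 0.21 for NR1H4 passed (adjusted p = 0.036; 0.14 and 0.18 with it). At 48 h it held again for 3 of 8 (1 higher, 2 lower), against 36.4% (18.6% higher, 17.8% lower): NR0B2 by 0.71 ± 0.05 (adjusted p = 4.8e-10), CYP8B1 by −1.19 ± 0.23 (adjusted p = 0.00041), the only one past 2-fold (7.42%), and NR1H4 by −0.25 ± 0.07 (adjusted p = 0.012). For CYP27A1 the difference was 0.02 ± 0.03 at 24 h and −0.02 ± 0.03 at 48 h (adjusted p = 0.81 and 0.66), an approximate 95% interval of −0.05 to 0.08 and of −0.09 to 0.04. The CYP27A1 value at 48 h rests on the scaling, since it became −0.20 by library size alone (adjusted p = 5.0e-05) and −0.19 with limma on FPKM (adjusted p = 9.1e-05). At 48 h the FGFR4 difference of 0.02 ± 0.04 turned to −0.15 when counts were scaled by library size alone (adjusted p = 0.0012), a scaling that gave 1 higher and 4 lower members.

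The other genes of the pathway were taken from lists by function. Of 17 further transport genes, 13 were tested, and in APOA4-KO against HepG2 4 were higher and 3 lower at 0 h, 6 higher and 3 lower at 24 h, and 5 higher and 4 lower at 48 h, with medians of −0.03, 0.38 and 0.27. That is 7, 9 and 9 of 13, against 30.5%, 48.1% and 50.8% of all genes tested. The largest differences were those of 2 neighbouring transporter genes: ABCB4, the phospholipid floppase of the canalicular membrane, was higher by 2.31 ± 0.11, 2.96 ± 0.11 and 3.01 ± 0.11 on the log2 scale, and ABCB1, the multidrug exporter MDR1, by 1.72 ± 0.09 at 0 h and 2.74 ± 0.09 at 24 h. ABCB4 lay between 183 and 320 counts in the 9 libraries of HepG2 and between 1090 and 2036 in the 9 of APOA4-KO, with no overlap. ATP8B1, an aminophospholipid flippase, was higher at all 3 times (0.69 ± 0.13, 1.53 ± 0.13 and 1.01 ± 0.13), and ABCC3, a basolateral exporter of bile acid conjugates, was lower (−0.97 ± 0.05, −1.09 ± 0.05 and −0.73 ± 0.05). SLC51A and SLC51B, the subunits of the basolateral exporter OST, were higher in APOA4-KO at 24 h (1.29 ± 0.16 and 0.81 ± 0.16), and ABCG8, a subunit of a sterol exporter, was lower at 48 h (−1.02 ± 0.08). On the opposite strand, PCYT1A shares 389 exon bases with SLC51A and RASL12 shares 60 with SLC51B, and whether the counting used strand is not stated.

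**Figure D5:**
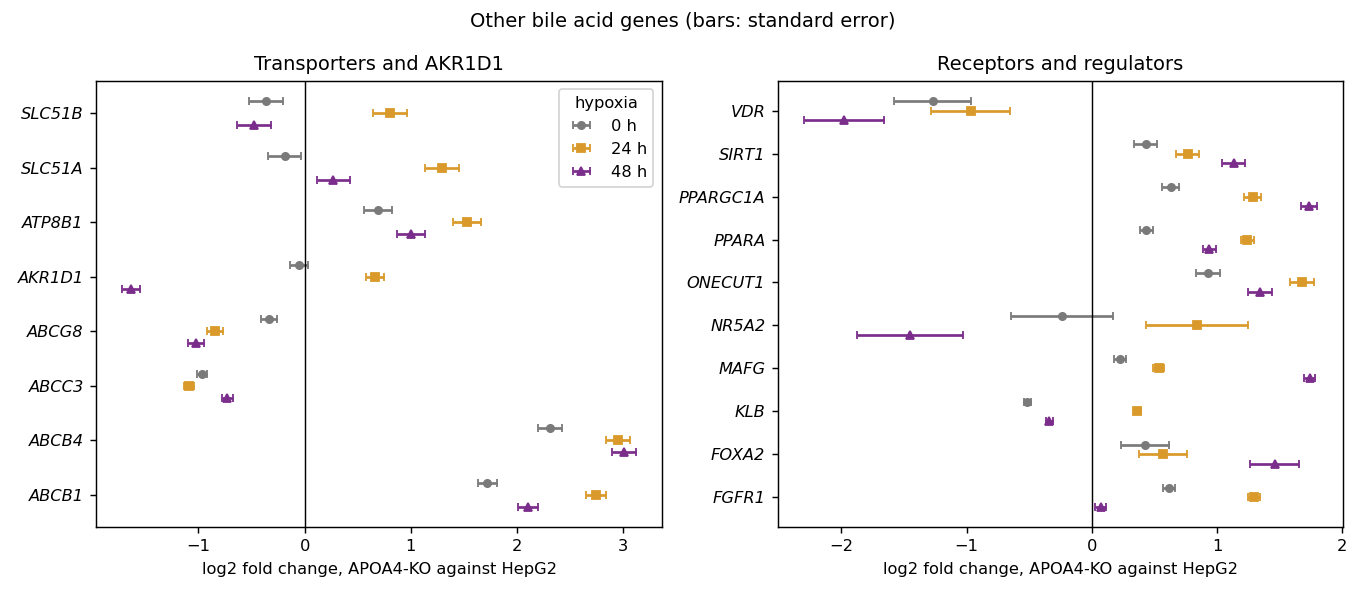
Log2 fold change between the lines (positive where APOA4-KO is higher) after 0 h, 24 h and 48 h, with standard errors, for transport genes and AKR1D1 (left) and for receptors and regulators (right), genes named for at least 1 change past 2-fold, plus KLB. ABCB4 and ABCB1 lie between 1.72 and 3.01 at each time, and PPARGC1A stands at 0.63, 1.28 and 1.73.

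Of 15 further synthesis genes, 12 were tested, and 3 differed between the lines at 0 h (1 higher, 2 lower), 8 at 24 h (5 higher, 3 lower) and 8 at 48 h, all 8 lower in APOA4-KO, with a median of −0.28 beside −0.04 for all genes. The shares of all genes tested were 30.5%, 48.1% and 50.8% (27.3% lower at 48 h), so 3 of 12 at 0 h is no more than the background. AKR1D1, the 5-beta-reductase of the sterol ring, held 4.84 to 5.72 CPM in APOA4-KO at 48 h against 15.4 to 16.9 CPM in HepG2 (−1.63 ± 0.09, adjusted p = 7.0e-12), after no detectable difference at 0 h (−0.05 ± 0.08, adjusted p = 0.70). In HepG2 itself AKR1D1 fell at 24 h (−1.04 ± 0.08) and was back at 48 h (0.05 ± 0.08), and at 24 h 8 of the 12 synthesis genes were lower than at 0 h and none higher, against 18.3% of all genes lower.

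Of 19 regulators, 18 were tested, and 7 were higher and 3 lower in APOA4-KO at 0 h, 12 higher and 3 lower at 24 h, and 11 higher and 5 lower at 48 h, with medians of 0.10, 0.60 and 0.33. These are 10, 15 and 16 of 18, beside 30.5%, 48.1% and 50.8% of all genes tested. PPARGC1A, a coactivator of nuclear receptors, was higher by 0.63 ± 0.07, 1.28 ± 0.07 and 1.73 ± 0.07, and MAFG, a repressor of bile acid synthesis genes that FXR induces, by 0.23 ± 0.04, 0.53 ± 0.04 and 1.74 ± 0.05. ONECUT1 (HNF6) was higher by 0.93 ± 0.10, 1.68 ± 0.10 and 1.34 ± 0.10, and VDR, the vitamin D receptor, was lower, with log2 fold changes of −1.27 ± 0.31, −0.97 ± 0.32 and −1.98 ± 0.32. VDR was scarce, at 1.26 CPM in APOA4-KO against 3.04 CPM in HepG2 at 0 h and 0.51 against 2.01 CPM at 48 h. NR5A2, which encodes LRH-1, an activator of CYP7A1 and CYP8B1, was lower at 48 h (−1.45 ± 0.42, adjusted p = 0.0073). It was scarce there, at 0.26 CPM in APOA4-KO against 0.70 CPM in HepG2. Within APOA4-KO NR5A2 rose from 0 h to 24 h (1.11 ± 0.41, adjusted p = 0.035). PPARA and FGFR1 were higher in APOA4-KO than in HepG2 at 24 h (1.24 ± 0.05 and 1.30 ± 0.05). At 48 h FOXA2 and SIRT1 were higher (1.46 ± 0.20 and 1.13 ± 0.09).

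A list of 10 genes known to be induced by FXR, without those named above, did not share 1 direction: in APOA4-KO 3 were higher and 5 lower before hypoxia, 3 higher and 4 lower after 24 h, and 6 higher and 3 lower after 48 h, with medians of 0.10, −0.15 and 0.56. In all 8, 7 and 9 of 10 differed, where the shares of all genes tested were 30.5%, 48.1% and 50.8%. FGB, a fibrinogen chain, was higher by 1.55 ± 0.03, 2.75 ± 0.03 and 1.35 ± 0.03, and ICAM1, an adhesion molecule, by 1.23 ± 0.03 at 48 h, after it was lower at 0 h and 24 h (−0.10 ± 0.03 and −0.50 ± 0.03). FGA and FGG were higher in APOA4-KO at 24 h (1.63 ± 0.02 and 1.49 ± 0.02). PDK4 was higher at 48 h (1.43 ± 0.38), at 1.05 CPM against 0.39 CPM in HepG2. In HepG2 itself FETUB was lower at 24 h than at 0 h (−1.18 ± 0.19). Of 6 genes of bile acid detoxification, 4 differed at 0 h (1 higher, 3 lower), 5 at 24 h (3 higher, 2 lower) and 4 at 48 h (2 higher, 2 lower), against the same shares of all genes. Of the 3 higher at 24 h, UGT1A3 (5.93 ± 1.95) was near 0, at 0.09 CPM in APOA4-KO and 0 CPM in HepG2. EPHX1, an epoxide hydrolase, was lower (−1.13 ± 0.03, −1.29 ± 0.03 and −1.40 ± 0.03), and UGT2B4, which glucuronidates bile acids, was higher by 0.82 ± 0.22, 2.72 ± 0.23 and 1.53 ± 0.22. UGT2B7 was lower in APOA4-KO at 48 h (−1.03 ± 0.07).

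Across the 18 libraries, which share depth, scaling and the 6 groups, the members differed in how closely they ran together, given here as a description of log2 CPM with no test. CYP27A1 and FGFR4 ran most closely (Pearson's r = 0.97, n = 18), followed by NR1H4 and CYP27A1 (0.85), CYP7A1 and CYP8B1 (0.76) and NR1H4 and FGFR4 (0.73). BAAT ran against CYP27A1 (−0.68), FGFR4 (−0.65) and NR1H4 (−0.60). For NR0B2 the values were 0.54 with BAAT, 0.38 with CYP7A1, 0.01 with CYP8B1 and −0.05 with its inducer NR1H4. Among 12400 genes with a mean count of at least 100, those most like CYP7A1 were BEX1 (r = 0.96), HMGCS1 (0.94) and PEG10 (0.94), those most like CYP8B1 were SMLR1 (0.92), DAB2 (0.91) and PDZK1 (0.90), and those most like BAAT were ETV5 (0.93), LPAR6 (0.93) and JAK3 (0.92).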

How the data were processed

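Sequencing libraries from 18 samples of HepG2 and APOA4-KO gave 2 deposited tables. The gene counts are whole numbers, made by the authors after fastp trimming and HISAT2 alignment to GRCh38.p13. For the counting the paper names featureCounts, while the submitters' processing notes name StringTie. Which of them made the deposited counts is not settled here, and the strand setting of the counting is not given in the sources used. The deposited FPKM values are per length and depth, as the authors computed them, and served for levels between genes and for an alternative test. Counts were scaled with TMM and tested with edgeR 4.0.16 (quasi-likelihood, R 4.3.3) in 1 model over the 6 groups, after the low-count filter of edgeR, which left 19743 of 61806 genes. The 11 contrasts (3 between lines, 6 between times, 2 of the difference in change) were each adjusted over all genes tested, and a call was an adjusted p under 0.05. Standard errors were derived from the log2 fold change and its F statistic, and the 95% intervals from them. Alternatives were other scalings, no filter, only the compared groups, a replicate block, DESeq2 1.42.0, limma 3.58.1 on log2(FPKM + 1), and leaving out each library. The script was tested on simulated data.

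The members and lists were chosen with earlier results of these data known. Genes outside the 10 members were named if they passed the test at 2-fold or more without overlap between groups in a comparison of the lines or a change from 0 h, plus KLB, and the 3 genes most correlated with each member that did so. Motifs were searched in RefSeq promoters of GRCh38.p14, and gene positions are those of GENCODE for GRCh38. Counts of replicates differed by more than sampling noise, so no 2 libraries were merged as 1 library deposited under different names, which does not show that they came from separate cultures.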

Additional observations from a re-analysis of the deposited data

Results flagged for a closer look

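A difference between the lines in their change from 0 h, by a test of that difference in edgeR's quasi-likelihood model with Benjamini-Hochberg adjustment, was met by 3 of the 8 members tested at each time and by KLB, against 32.2% of all genes tested at 24 h and 36.4% at 48 h. With 3 of 8, the members stood near the share of all genes at both times. At 24 h the value was 0.21 for NR0B2 (adjusted p = 0.0014), −1.35 for BAAT (adjusted p = 0.0069), −0.22 for FGFR4 (adjusted p = 0.00011) and 0.88 for KLB (adjusted p = 1.2e-11), each on the log2 scale and positive where APOA4-KO changed upward of HepG2. At 48 h it was −0.25 for NR1H4 (adjusted p = 0.012), 0.71 for NR0B2 (adjusted p = 4.8e-10), −1.19 for CYP8B1 (adjusted p = 0.00041) and 0.18 for KLB (adjusted p = 0.0016). NR0B2 and KLB appear at both times, and both times use the same 0 h libraries. The root mean square log2 distance of a library from the mean of its other replicates was highest in APOA4-KO, in replicate 3 at 48 h (0.382) and replicate 1 at 24 h (0.381). The lowest was 0.303. Groups of 3 libraries are too small to call either an outlier. Without replicate 3 at 48 h, the changes in APOA4-KO from 24 h to 48 h were −0.74 for CYP7A1 (adjusted p = 0.084) and −0.32 for CYP8B1 (adjusted p = 0.19).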

How the results depend on the processing

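Of 55 calls on members, 46 held under each of the 25 alternatives and 9 were lost under at least 1. Of 33 member results that were not called, 11 passed under at least 1 alternative. Direction turned for FGFR4 in the difference between the lines at 48 h (0.02 to −0.15 by library size alone and −0.15 by limma on FPKM), for ABCC3 in APOA4-KO at 48 h against 0 h (0.02 to −0.13 and −0.11), for FGA in the difference at 48 h (0.01 to −0.17 and −0.17) and for UGT1A3 in that at 24 h by limma (3.04 to −0.24). The cause of these turns was not tested. At 24 h UGT1A3 was near 0, at 0.09 CPM in APOA4-KO and 0 CPM in HepG2.

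The number of members past 2-fold was 0 with limma, whose log2(FPKM + 1) scale understates the change of low genes, in the lines at 0 h (3 otherwise), 24 h (1) and 48 h (1), in HepG2 at 24 h (2), in APOA4-KO at 48 h (2) and in the differences at 24 h and 48 h (1 each). All genes past 2-fold fell likewise, from 851 to 142 for the lines at 0 h and from 2676 to 755 at 48 h. For the lines at 48 h that number of members was 2 with DESeq2 size factors and with DESeq2, and in HepG2 at 24 h it was 1 with only the compared groups. The members changed in HepG2 at 48 h against 0 h (5) were 3 without the filter, 2 with only the compared groups and 3 with limma. Those in APOA4-KO at 48 h against 24 h (5) were 3 with DESeq2 size factors, without the filter and with the replicate block. For the difference at 48 h (3) they were 5 by library size alone and 6 with limma.

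Without 1 library, the counts ran from 6 to 6 for the lines at 0 h (2 to 3 past 2-fold), 5 to 6 at 24 h (1 to 1) and 6 to 6 at 48 h (1 to 2). In HepG2 they ran from 6 to 7 at 24 h (1 to 2), 2 to 5 at 48 h (0 to 1) and 4 to 5 from 24 h to 48 h, and in APOA4-KO from 4 to 4 at 24 h, 6 to 7 at 48 h (2 to 3) and 3 to 5 from 24 h to 48 h. The differences gave 3 to 4 at 24 h and 3 to 3 at 48 h. The lowest count in HepG2 at 48 h, 2, came without replicate 1 at 0 h and again without replicate 1 at 48 h.

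Equal replicate numbers did not pair the libraries: over 45 pairs the deviations from the group means correlated between −0.29 and 0.11, 2 pairs above 0.1. The replicate block gave 5850 against 6015 genes for the lines at 0 h, and among the counts of members changed only that of APOA4-KO at 48 h against 24 h (5 to 3). By library size alone the calls for the lines at 48 h split into 3601 higher and 6788 lower (4641 and 5391 with TMM), those in APOA4-KO at 48 h into 3499 and 6686 (4727 and 5116), and those in HepG2 at 24 h into 1732 and 4875 (2244 and 3606). Low counts limit CYP7A1, CYP8B1 and BAAT, for SLC10A1 no difference was detectable, and FGF19 and ABCB11 were not tested.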
